A study of Mus musculus with 6 samples.

Results

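Aminoacyl-tRNA synthetases are the enzymes that join each amino acid to its transfer RNA, and their transcripts were measured in cultured primary fibroblasts from mouse embryos (MEFs). The genes were taken from a fixed list of 36 synthetase genes, 20 for cytosolic and 16 for mitochondrial enzymes, out of 55487 genes in the deposited tables, and matched through their Ensembl identifiers. RNA-seq covered 6 libraries of untreated cells: wild type (WT) at passages 2, 3 and 4, and knockout (KO) at the same 3 passages, with 1 library each. At each passage the culture is detached and plated anew. The labels name neither the deleted gene nor the strain, embryo age or number of embryos and cultures. The 3 libraries of a genotype may therefore come from 1 culture, in which case the p-values below describe the scatter of these libraries alone, which may be technical. Titles gave the genotype. A second label, the genotype tag, gives WT for 2 libraries titled KO, those of passages 3 and 4. The series title places the cells in work on mTORC1 signalling.

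In the cytosol these enzymes supply charged tRNAs to the ribosomes that translate nuclear messages. Several of them sit in the multisynthetase complex, a large assembly held together by the scaffold proteins Aimp1, Aimp2 and Eef1e1, while the others act free of it. A second set of nuclear genes encodes enzymes that enter mitochondria and charge the tRNAs used to make a few respiratory chain subunits. Gars and Kars each give a cytosolic and a mitochondrial enzyme from a single gene. Mitochondria make their glutaminyl-tRNA indirectly, through an amidotransferase. When amino acids run short, uncharged tRNA activates the kinase GCN2, and the transcription factor ATF4 then raises many cytosolic synthetase genes. mTORC1 also raises ATF4 translation in fibroblasts.

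Library totals ran from 24853121 to 67760880 expected counts. Each synthetase gene held between 94 and 56052 counts in every library, so all 36 passed the filter on low counts. The 20 most abundant genes took 18.5% of the counts in the WT library of passage 3 and at most 15.3% in the others. The WT and KO libraries differed in sex-linked transcripts. Xist lay between 0.118 and 0.301 CPM (counts scaled by library size and TMM) in WT and between 417 and 567 in KO, and Ddx3y between 73.4 and 88.0 in WT and between 0 and 0.731 in KO. Genotype and the sex of the cells therefore cannot be told apart. The 2 libraries titled KO but tagged WT held 417 and 567 CPM of Xist, near the 564 of KO at passage 2. In these sex-linked transcripts the libraries thus grouped by title and not by tag. The 9 fibroblast markers were present in every library, with a summed level of 37850 to 49530 CPM in WT and 21450 to 25590 in KO. The 7 macrophage markers summed to 142, 63.6 and 23.8 CPM in WT and to 90.2, 32.9 and 18.6 in KO at passages 2, 3 and 4, and all 7 fell with passage. Their part in the synthetase values was not tested. In bulk RNA, fewer cells of a type and less RNA per cell cannot be told apart.

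Cytosolic synthetase transcripts were more abundant than mitochondrial ones when levels were compared per length, in TPM, an abundance scaled for transcript length. The median level of the 20 cytosolic genes divided by that of the 16 mitochondrial genes was 8.81, 7.01 and 8.39 in WT and 9.48, 9.49 and 9.80 in KO at passages 2, 3 and 4. By these medians the KO ratios lay above all 3 WT ratios. Ratios from means of log2(TPM + 1) overlapped, at 9.03, 6.55 and 8.85 in WT and 9.15, 8.88 and 8.88 in KO. On average the ratio was 8.07 ± 0.942 (SD, n = 3) in WT and 9.59 ± 0.183 (SD, n = 3) in KO. Nars, the asparaginyl enzyme, had the highest level of the cytosolic group, at 387 ± 97.0 TPM (SD, n = 6). Gars, the glycyl enzyme, followed at 247 ± 38.4 TPM and Sars, the seryl enzyme, at 222 ± 39.2 TPM. Gars held 263, 169.8 and 257 TPM in WT and 265, 257 and 272 TPM in KO, and Sars 227, 144 and 232 TPM in WT and 239, 235 and 253 TPM in KO. The spreads of these 2 neighbours over the libraries overlapped, but Gars lay above Sars in every library. Both were lowest in WT at passage 3. At the low end stood Farsa and Farsb, the subunits of the phenylalanyl enzyme, at 33.8 ± 6.94 and 53.7 ± 13.5 TPM, and Wars, the tryptophanyl enzyme, at 58.7 ± 14.1 TPM. Farsb and Wars overlapped in their spread.

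Within the mitochondrial group 1 gene stood far above the rest. Lars2, the leucyl enzyme, stood at 311 ± 84.3 TPM (SD, n = 6) and made up 56.7% to 76.9% of the summed mitochondrial synthetase TPM of a library. Next came Iars2, the isoleucyl enzyme, at 32.7 ± 3.62 TPM and Yars2, the tyrosyl enzyme, at 16.7 ± 4.89 TPM. Part of the Iars2 transcript sequence, 21.8% of its 64-base words, lies opposite the gene Rab3gap2, and strand handling is not stated for these data, so the Iars2 level is uncertain. Lowest were Mars2, the methionyl enzyme, at 1.74 ± 0.469 TPM, Pars2, the prolyl enzyme, at 3.15 ± 0.663 TPM, and Ears2, the glutamyl enzyme, at 4.86 ± 0.728 TPM. Iars2 held 32.3, 26.5 and 32.6 TPM in WT and 32.7, 34.5 and 37.5 TPM in KO at passages 2, 3 and 4. Pars2 held 3.21, 1.89 and 3.16 TPM in WT and 3.75, 3.28 and 3.63 TPM in KO. Ears2 held 4.95, 3.48 and 5.54 TPM in WT and 4.87, 4.94 and 5.38 TPM in KO. In these 3 genes the WT library of passage 3 was again the lowest. Mars2 has a long transcript, with a mean effective length of 11197 bases, which lowers its TPM relative to its counts.

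Each mitochondrial enzyme was set beside a cytosolic enzyme for the same amino acid. Eprs served for both Ears2 and Pars2, and Dars, Farsb, Gars, Kars and Qars were in no pair. The cytosolic transcript was higher in every library for 15 of 16 pairs. The median of the 16 mean TPM ratios was 10.1. The widest mean gap was that of Nars over Nars2, at 62.0 ± 10.6 (SD, n = 6). Eprs over Pars2 followed at 57.1 ± 9.98, with overlapping spread. In WT it was the wider of these gaps at every passage, at 73.6, 62.17 and 59.65 against 73.1, 43.86 and 58.28. The phenylalanyl pair, Farsa over Fars2, had the smallest mean gap among those 15, at 2.80 ± 0.657. The other subunit, Farsb, was not used for it. Iars over Iars2 was close, at 2.92 ± 0.417. Leucine was the exception, since Lars over Lars2 gave 0.310 ± 0.116.

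**Figure D1:**
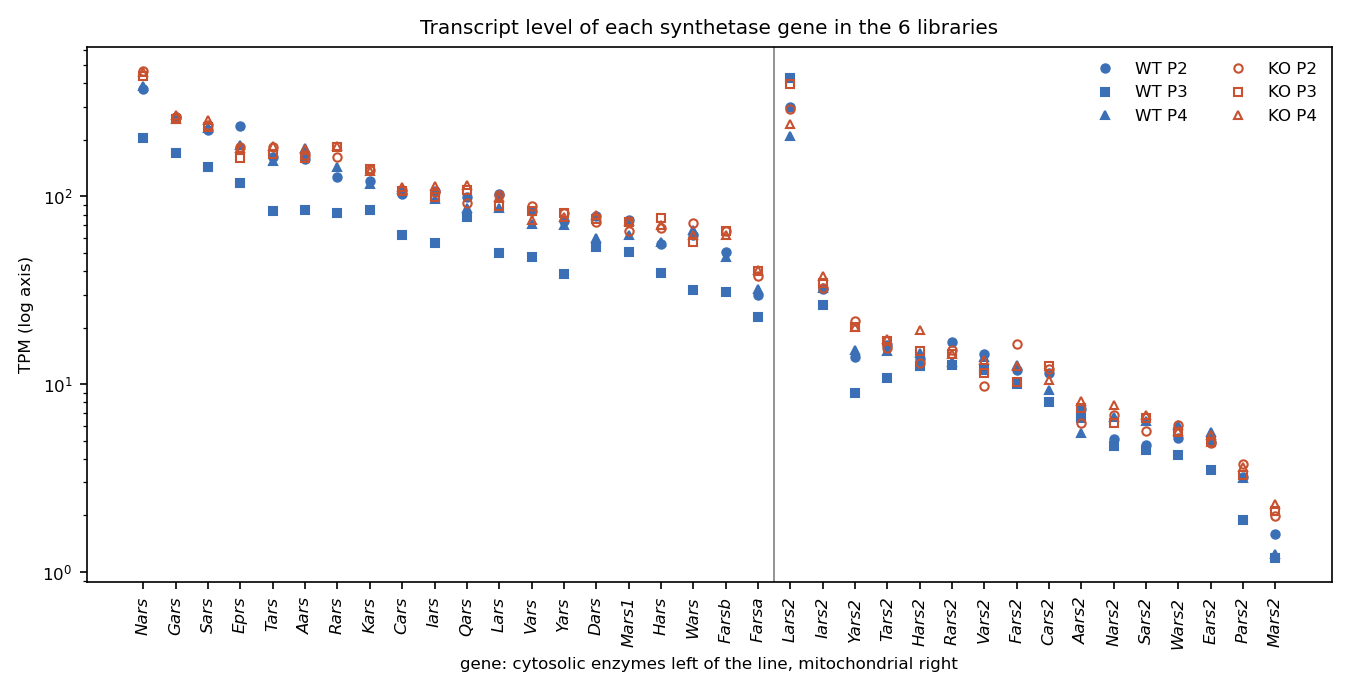
TPM on a log axis for each of the 36 synthetase genes in the 6 libraries (filled symbols WT, open symbols KO, shape for passage), sorted by mean within the cytosolic and the mitochondrial group. Nars leads the cytosolic genes at a mean of 387 TPM, and Lars2, at 311 TPM, stands apart from the other mitochondrial genes, which reach at most a mean of 32.7 TPM.

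Lars2 (ENSMUSG00000035202, GRCm38 chr9:123366927-123462666) also varied across the libraries in a way of its own. It held 603, 1036 and 475 CPM in WT and 655, 804 and 461 CPM in KO at passages 2, 3 and 4. Both genotypes were highest at passage 3 and lowest at passage 4, and the groups overlapped. Its genotype difference was -0.14 ± 0.32 on the log2 scale (edgeR adjusted p = 0.850), and its sign rested on single libraries. It was 0.26 without the WT library of passage 3, 0.05 without the KO library of passage 4 and -0.35 without the WT library of passage 4. CT010467.1, annotated as ribosomal RNA (GRCm38 chr17:39846353-39848827), held 7933, 15253 and 7169 CPM in WT and 10556, 11365 and 5844 CPM in KO. The 6 libraries stood in the same order for this gene as for Lars2. The mitochondrial ribosomal RNA mt-Rnr1 was likewise highest in WT at passage 3, at 237 CPM, but lowest in WT at passage 4, at 111 CPM. Of the 64-base words of Lars2 transcripts, 0.0444% occurred in another annotated gene. Only identical words were counted, so a shorter or imperfect match to ribosomal RNA would not show. The comparison with ribosomal RNA was chosen after the Lars2 values were seen, and its part in the Lars2 level was not tested.

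**Figure D2:**
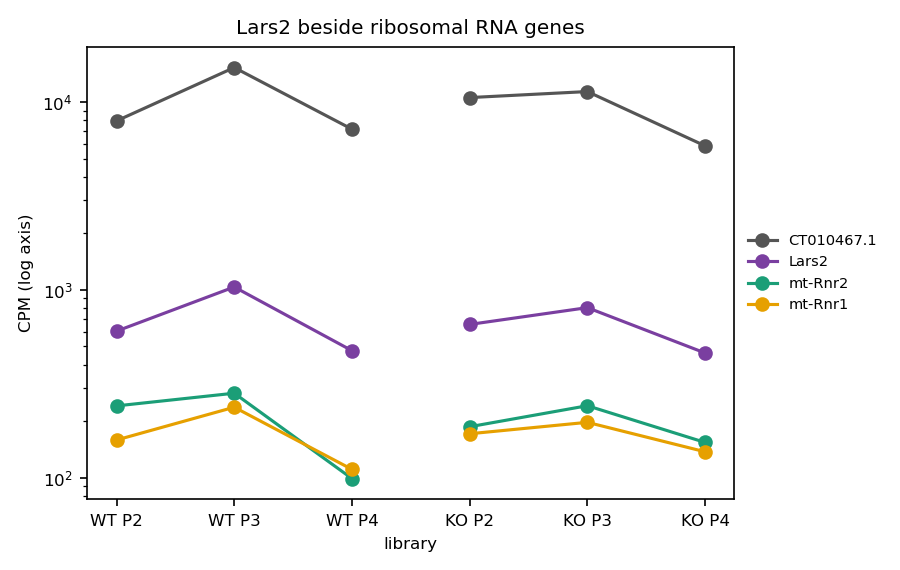
CPM on a log axis for Lars2 and 3 ribosomal RNA genes (CT010467.1, mt-Rnr1 and mt-Rnr2) in each library, with lines joining the passages of a genotype. Lars2 and CT010467.1 are both highest in WT at passage 3 (1036 and 15253 CPM) and lowest in KO at passage 4 (461 and 5844 CPM).

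Promoters were searched for 2 motifs, because ATF4 acts on many cytosolic synthetase genes and the factor NRF1 on many nuclear genes for mitochondrial proteins. RefSeq promoters (GRCm38.p6, 250 bases before to 50 after the start) were on hand for 27 of the 36 genes, 13 cytosolic and 14 mitochondrial. TGATGNAA, the core of the C/EBP-ATF response element, was found on either strand in 5 of 13 cytosolic genes (Aars, Gars, Iars, Tars and Yars) and in 0 of 14 mitochondrial genes. It occurs in 3.97% of all 32851 promoters. With the longer TGATGNAAT, which contains the shorter motif, 3 genes (Aars, Gars and Iars) and 0.965% of promoters matched. The NRF1 core (GCGCA, any base, then GCGC), which does not overlap the other motif, was found in Farsb, Kars and Tars among the cytosolic genes and in Iars2 and Mars2 among the mitochondrial ones, against 4.6% of all promoters. A match says only that the letters are there.

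The stretches from 150 bases to 1 base before the start are shown for Gars and Tars, which hold the ATF4 motif, for Kars, which holds the NRF1 motif, and for Mars2, the mitochondrial gene with the largest genotype difference below, which holds neither in this stretch. Capitals mark the motif, read here as its reverse complement in all 3 genes. They lie at chr6:55037851-55038000 (plus strand) for Gars, chr15:11399659-11399808 (minus) for Tars, chr8:112011355-112011504 (minus) for Kars and chr1:55237027-55237176 (plus) for Mars2.
Gars: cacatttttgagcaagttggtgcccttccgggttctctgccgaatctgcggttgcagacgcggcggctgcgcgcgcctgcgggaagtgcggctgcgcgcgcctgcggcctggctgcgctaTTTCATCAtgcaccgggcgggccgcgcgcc
Tars: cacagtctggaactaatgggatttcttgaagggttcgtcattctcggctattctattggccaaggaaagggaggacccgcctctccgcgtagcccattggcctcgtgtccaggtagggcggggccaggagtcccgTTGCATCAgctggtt
Kars: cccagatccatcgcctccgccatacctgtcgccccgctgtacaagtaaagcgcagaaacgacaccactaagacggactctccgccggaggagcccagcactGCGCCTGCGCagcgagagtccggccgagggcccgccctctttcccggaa
Mars2: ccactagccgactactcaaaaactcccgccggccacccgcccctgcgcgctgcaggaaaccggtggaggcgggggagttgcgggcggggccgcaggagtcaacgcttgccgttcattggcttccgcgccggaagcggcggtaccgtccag

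Between the genotypes, none of the 36 synthetase genes was called by the quasi-likelihood test of edgeR at an adjusted p under 0.05, against 2.48% of the 16603 genes tested (0.934% higher and 1.55% lower in KO). At an unadjusted p under 0.05 the count was 7 (6 higher and 1 lower in KO), against 21.3% of all genes. DESeq2 called 2 synthetase genes, both higher in KO, against 10% of all genes, and limma on log2(TPM + 1) called 0, against 2.33%. The cytosolic genes had a median log2 difference of 0.20 (range -0.14 to 0.50), with 19 of 20 above 0. For the mitochondrial genes the median was 0.06 (range -0.26 to 0.56), with 11 of 16 above 0, and for all genes it was -0.01, with 48.4% above 0. Leaving out the WT library of passage 3 brought the cytosolic median to 0.11 and the count above 0 to 15 of 20, and leaving out that of passage 4 brought it to 0.35 and the mitochondrial median to 0.16.

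Farsb (ENSMUSG00000026245, GRCm38 chr1:78417975-78488897), the beta subunit of the phenylalanyl enzyme, had the largest cytosolic difference. It held 47.7, 35.9 and 49.0 CPM in WT and 67.6, 64.3 and 55.5 CPM in KO at passages 2, 3 and 4. Of the 64-base words of its transcripts, 6.68% lie opposite the gene Sgpp2. All 3 KO libraries lay above all 3 WT libraries. The log2 difference was 0.50 ± 0.14 (SE), with an edgeR adjusted p of 0.113 and a DESeq2 adjusted p of 0.0319. Its partner subunit Farsa held 27.9, 25.3 and 32.9 CPM in WT and 39.1, 37.7 and 35.0 CPM in KO. Again the groups did not overlap, and the log2 difference was 0.38 ± 0.12 (edgeR adjusted p = 0.144).

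Rars, the arginyl enzyme of the multisynthetase complex, held 139, 107 and 175 CPM in WT and 197, 200.4 and 188 CPM in KO. Its WT libraries spread widely and its KO libraries stayed close together. The log2 difference was 0.47 ± 0.17 (edgeR adjusted p = 0.168), and without the WT library of passage 4 it was 0.67 with an adjusted p of 0.0441, in a fit that called 5.18% of all genes. Nars held 344, 224 and 384 CPM in WT and 466, 407 and 399.9 CPM in KO, a difference of 0.42 ± 0.20 (edgeR adjusted p = 0.272) that was 0.23 without the WT library of passage 3. Hars, the histidyl enzyme, held 57.4, 48.5 and 65.5 CPM in WT and 78.1, 80.2 and 68.3 CPM in KO. Its difference was 0.40 ± 0.13 (edgeR adjusted p = 0.141), and for both Nars and Hars the KO libraries lay above all WT libraries.

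In all, every KO library lay above every WT library for 7 of 20 cytosolic genes (Farsa, Farsb, Hars, Nars, Qars, Rars and Tars), and for 4 of 16 mitochondrial genes, against 13.1% of all genes. The counts were also 7 and 4 without the WT library of passage 3, against 15.1% of all genes. For the cytosolic genes this count could not differ, because that library held the lowest level for each of them. The reverse held for 0 cytosolic genes and 1 mitochondrial gene, Vars2, against 14.1% of all genes. Qars, the glutaminyl enzyme, stood out for its even level, at 92.3, 91.1 and 92.3 CPM in WT and 97.8, 103 and 98.5 CPM in KO, a difference of 0.12 ± 0.08 (edgeR adjusted p = 0.442). The only cytosolic gene with a difference below 0 was Eprs, the bifunctional glutamyl-prolyl enzyme. It held 619, 372 and 556 CPM in WT and 539, 421 and 444 CPM in KO, which gave -0.14 ± 0.20 (edgeR adjusted p = 0.735), and 0.16 when genotype followed the tag. The 8 enzymes of the multisynthetase complex had a median difference of 0.16 and the 12 free cytosolic enzymes one of 0.28. These medians were not compared by a test.

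Among mitochondrial enzymes, Mars2 (ENSMUSG00000046994, GRCm38 chr1:55237177-55248470) had the largest difference. It held 9.83, 8.89 and 8.57 CPM in WT and 13.6, 13.2 and 13.4 CPM in KO, that is 9.10 ± 0.658 against 13.4 ± 0.211 (SD, n = 3). The groups did not overlap, and the KO library was higher at every passage, by 0.47, 0.56 and 0.64 on the log2 scale. The log2 difference was 0.56 ± 0.12 (edgeR adjusted p = 0.0645). With passage as a block it was 0.56 ± 0.12 with an adjusted p of 0.0331, a fit in which 11.1% of all genes were called (4.69% higher in KO), and the DESeq2 adjusted p was 0.00225.

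Yars2 held 10.8, 7.99 and 13.0 CPM in WT and 17.5, 15.3 and 13.7 CPM in KO. Its KO libraries were above the WT libraries, narrowly so at passage 4. The log2 difference was 0.55 ± 0.20 (edgeR adjusted p = 0.165). Nars2, the asparaginyl enzyme, held 5.27, 4.78 and 4.88 CPM in WT and 6.85, 5.78 and 5.37 CPM in KO, without overlap, for a difference of 0.27 ± 0.17 (edgeR adjusted p = 0.413). Vars2, the valyl enzyme, was the one gene with every KO library below WT. It held 17.6, 17.6 and 17.7 CPM in WT and 13.7, 15.2 and 15.2 CPM in KO, a difference of -0.26 ± 0.11 (edgeR adjusted p = 0.219). Cars2, the cysteinyl enzyme, held 9.65, 7.56 and 8.19 CPM in WT and 10.9, 10.4 and 8.33 CPM in KO, and its groups overlapped (0.22 ± 0.17, edgeR adjusted p = 0.495).

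**Figure D3:**
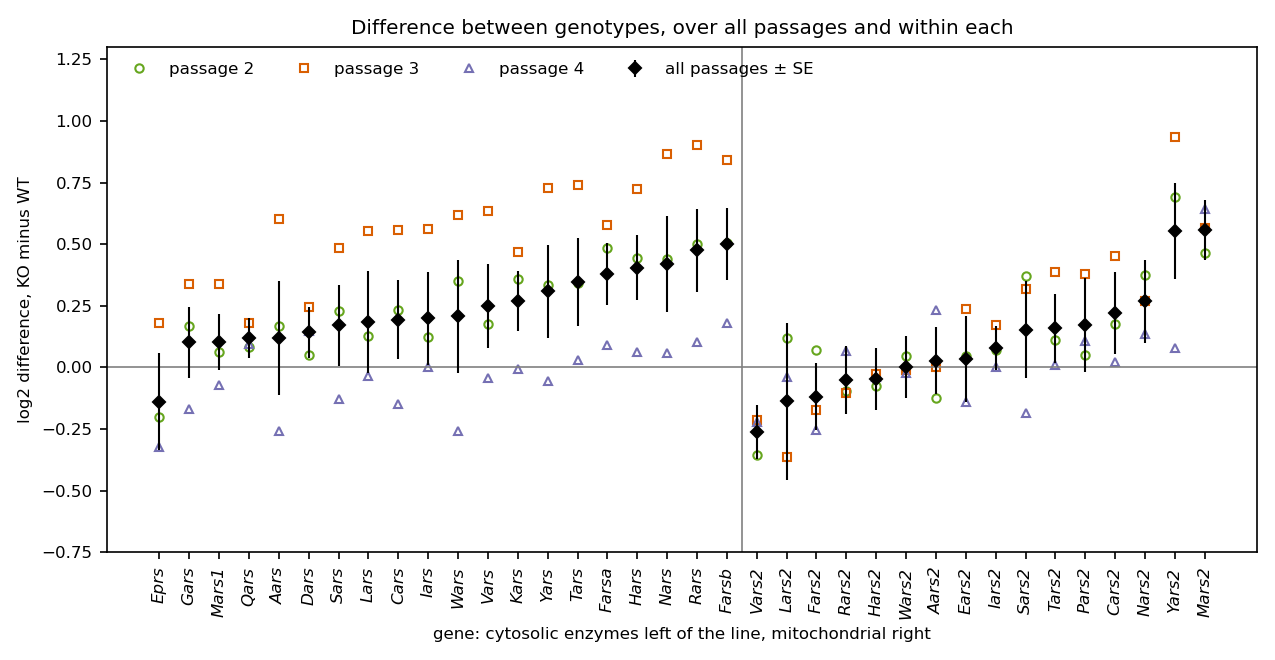
Log2 difference KO minus WT for each gene, with cytosolic enzymes left of the line and mitochondrial ones right. Black diamonds give the edgeR value over all passages with its SE, and open symbols the difference between the 2 libraries of each passage. Mars2 is alike at the 3 passages (0.47, 0.56 and 0.64), while each cytosolic gene has its highest value at passage 3 and lies between -0.32 and 0.18 at passage 4.

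Within passages, the median cytosolic difference was 0.23 at passage 2, 0.57 at passage 3 and -0.02 at passage 4, with KO above WT for 19, 20 and 9 of 20 genes. Among all genes KO was above WT for 46.9%, 48.5% and 49.5%. The mitochondrial medians were 0.07, 0.20 and 0.01, with KO above WT for 12, 9 and 9 of 16 genes. Each passage rests on 1 pair of libraries. Rars had log2 differences of 0.50, 0.90 and 0.10 at passages 2, 3 and 4. Aars, the alanyl enzyme, had 0.17, 0.60 and -0.26. The interaction test of edgeR, which asks whether the change per passage differs between genotypes, called 0 of 36 synthetase genes, with 0 at an unadjusted p under 0.05 and 0 by DESeq2 and by limma. Among all genes it called 0%, with 6.85% at an unadjusted p under 0.05, 0.494% called by DESeq2 and 0.012% by limma. The test fits passage as a straight line, so a difference at passage 3 alone hardly enters it. The KO slope was below the WT slope for 18 of 20 cytosolic and 10 of 16 mitochondrial genes, against 46.7% of all genes. These signs moved with single libraries. Without the WT library of passage 4, KO minus WT slope went from -0.06 to 0.56 for Eprs and from -0.08 to 0.59 for Lars. It went from -0.19 to 0.47 for Nars and from -0.30 to 0.43 for Wars. Hars2 moved the other way, from 0.02 to -0.06.

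The WT library of passage 3 held the lowest level of all 6 libraries for 20 of 20 cytosolic genes, against 20% of all genes tested and 7 of 16 mitochondrial genes. This count was made after the values had been seen. In WT the passage 3 level lay below the mean of passages 2 and 4 by a median of -0.53 on the log2 scale for the cytosolic genes, ranging from -0.84 (Aars) to -0.02 (Qars). In KO the same median was -0.04, and for all genes it was 0.01 in WT. Aars held 445, 271 and 531 CPM in WT and 499.6, 412 and 445 CPM in KO. Wars held 85.6, 53.2 and 96.3 CPM in WT and 109, 81.7 and 80.5 CPM in KO. In both genes the passage 3 library was the low one in WT, while the KO levels were spread less. The median SD of log2 CPM over passages was 0.33 in WT and 0.12 in KO for cytosolic genes, against 0.22 and 0.19 for all genes.

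Under RLE scaling, scaling by library size alone and TPM, 20 of 20 cytosolic genes also stood lowest in that library, with a median of -0.53, -0.58 and -0.70. On the TPM scale the median of all genes itself lay at -0.14, and 36.7% of all genes were lowest there. For the mitochondrial genes the count was 8, 8 and 13 of 16 under the 3 scalings. The mitochondrial median was -0.10 in WT with TMM, from -0.56 for Yars2 to 0.95 for Lars2. The same library had the largest share of counts in its 20 top genes and the highest level of ribosomal RNA, as given above. Their part in the low cytosolic values was not tested.

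**Figure D4:**
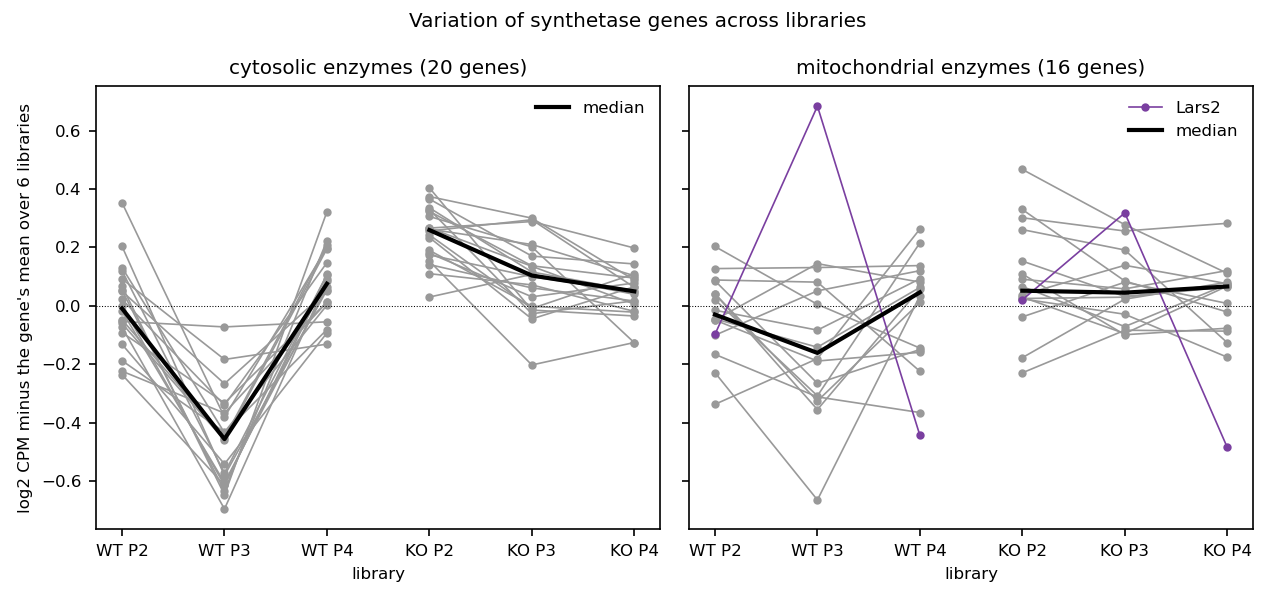
Log2 CPM of each gene minus its mean over the 6 libraries, for 20 cytosolic genes (left) and 16 mitochondrial genes (right). Grey lines are genes, the purple line is Lars2 and the thick black line the median, which for cytosolic genes is -0.46 in WT at passage 3 and 0.10 in KO at passage 3.

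The 5 cytosolic genes with TGATGNAA in their promoter had a median passage 3 value in WT of -0.67 (range -0.84 to -0.42), and the 8 cytosolic genes whose promoter lacked it one of -0.30 (range -0.66 to -0.02). The ranges overlapped and the groups were not compared by a test. Their median genotype differences were 0.20 and 0.16. For the remaining cytosolic genes no promoter was on hand. The passage 3 values of those genes in WT ran from -0.77 (Wars) to -0.34 (Hars). Genes of the GCN2 and ATF4 axis, a list of 22 regulators and targets, had a median of -0.65 in WT at passage 3. Of the 22, 16 were lowest there, against 20% of all genes. In KO the list's median at passage 3 was -0.13. A part of this axis in the low cytosolic values was not tested. Atf4 itself held 256, 191 and 289 CPM in WT and 278, 235 and 225 CPM in KO, with a genotype difference of 0.01 ± 0.17 (edgeR adjusted p = 0.988). Trib3, an ATF4 target that restrains AKT, held 63.6, 20.1 and 70.3 CPM in WT and 50.1, 21.3 and 31.6 CPM in KO, so that both genotypes were lowest at passage 3. Of the 22 genes, 1 was called between genotypes, against 2.48% of all genes: Pycr1, an enzyme of proline synthesis, fell in KO by 0.90 ± 0.16 on the log2 scale (edgeR adjusted p = 0.0361). With passage as a block 3 of 22 were called, against 11.1% of all genes, since Slc7a11, the cystine transporter, and Eif2s1, a subunit of initiation factor eIF2, were then higher in KO, with adjusted p of 0.0135 and 0.0227. The list's median genotype difference was 0.04.

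Along passages, edgeR called 0 of 36 synthetase genes, with 0 at an unadjusted p under 0.05 and 0 by DESeq2 and by limma, against 6.25% of all genes by edgeR, 21.2% at an unadjusted p under 0.05, 10.3% by DESeq2 and 7.4% by limma. The median slope per passage was -0.03 for cytosolic and -0.02 for mitochondrial genes, beside 0.00 for all genes. Fitted as a straight line, a slope takes little from passage 3. The slope medians moved with single libraries. The cytosolic one was -0.17 without the WT library of passage 4, 0.03 without the KO library of passage 2, 0.01 without that of passage 4 and 0.00 without the WT library of passage 2. The slope lay below 0 for 13 of 20 cytosolic and 10 of 16 mitochondrial genes, against 49.1% of all genes. Vars, the valyl enzyme, had the largest cytosolic slope. It held 142, 95.7 and 122 CPM in WT and 159.7, 149 and 118 CPM in KO, and its slope was -0.16 ± 0.08 per passage (edgeR adjusted p = 0.330). Lars, the leucyl enzyme of the complex, held 209.9, 122 and 189 CPM in WT and 229, 179 and 184 CPM in KO (slope -0.11 ± 0.12, edgeR adjusted p = 0.640). Dars, the aspartyl enzyme, held 89.9, 74.2 and 77.0 CPM in WT and 93.0, 88.0 and 85.3 CPM in KO (slope -0.09 ± 0.05, edgeR adjusted p = 0.397). For Vars, Lars and Dars alike, passage 3 was the lowest of the WT libraries.

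Among the mitochondrial genes Lars2 had the largest slope, at -0.21 ± 0.21 per passage (edgeR adjusted p = 0.624), and with no filter on low counts it was -0.23 with an adjusted p of 0.0326, a fit that called 7.74% of 31578 genes. Sars2, the seryl enzyme, held 4.56, 5.08 and 6.91 CPM in WT and 5.91, 6.34 and 6.07 CPM in KO (slope 0.16 ± 0.10, edgeR adjusted p = 0.429). Rars2, the arginyl enzyme, held 15.7, 13.7 and 12.4 CPM in WT and 14.7, 12.8 and 13.0 CPM in KO (slope -0.13 ± 0.07, edgeR adjusted p = 0.312). Hars2, the histidyl enzyme, held 15.1, 16.7 and 17.5 CPM in WT and 14.3, 16.4 and 17.1 CPM in KO (slope 0.12 ± 0.06, edgeR adjusted p = 0.335). In Hars2 the level was higher at each later passage in both genotypes, and its test did not pass. The slope of Cars2 was -0.16 ± 0.08 (edgeR adjusted p = 0.332).

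Genes that act beside the synthetases were described in the same fits. Of the 3 scaffolds of the multisynthetase complex, edgeR called 0 between genotypes and 3 at an unadjusted p under 0.05, while DESeq2 called 2 and limma 1. The shares of all genes were 2.48%, 21.3%, 10% and 2.33%. Eef1e1 held 12.4, 13.4 and 17.4 CPM in WT and 27.7, 26.3 and 21.7 CPM in KO. Its log2 difference was 0.81 ± 0.17 (edgeR adjusted p = 0.0539, with a passage block 0.0298). Aimp2 held 14.3, 13.0 and 17.1 CPM in WT and 25.9, 23.8 and 19.1 CPM in KO, a difference of 0.63 ± 0.16 (edgeR adjusted p = 0.0871, with a passage block 0.0497). For all 3 scaffolds the KO libraries lay above every WT library, which the complex's 8 enzymes did in 2 cases, Qars and Rars, against 13.1% of all genes. Aimp1 had a difference of 0.28 ± 0.09 (edgeR adjusted p = 0.151).

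Of the 9 genes for tRNA maturation and export, 0 were called by edgeR, 3 had an unadjusted p under 0.05, 1 was called by DESeq2 and 0 by limma, beside the same shares of all genes (2.48%, 21.3%, 10% and 2.33%). Their median was 0.18 and 9 of 9 were above 0. Trmt10c, a subunit of mitochondrial RNase P, had 0.51 ± 0.11 (edgeR adjusted p = 0.0647, with a passage block 0.0343), and Nsun2, a tRNA methyltransferase, had 0.49 ± 0.18 (edgeR adjusted p = 0.169). The 3 subunits of the mitochondrial glutaminyl amidotransferase had a median of 0.18 with 0 called by edgeR, DESeq2 or limma and 0 at an unadjusted p under 0.05. The 3 genes for formylation and delivery in mitochondria had a median of 0.21, with 0 called by the 3 tools and 1 at an unadjusted p under 0.05, Tufm, the mitochondrial elongation factor Tu (0.28 ± 0.11). The 78 mitochondrial ribosomal protein genes had a median of 0.20, with 0 called by edgeR, 16 at an unadjusted p under 0.05, 9 called by DESeq2 and 1 by limma. Counted in both directions, these are near the shares of all genes, 21.3% at an unadjusted p under 0.05 and 10% by DESeq2. All 16 and all 9 were higher in KO, while 1665 and 744 of all 16603 genes were. Of the 78 genes, 68 had a difference above 0, against 48.4% of all genes. For 32.1% of the 78, every KO library lay above every WT library, against 13.1% of all genes. In WT at passage 3 their median was -0.01, unlike the -0.53 of the cytosolic synthetases. The difference was not tested. Myc, a factor that raises many genes of protein synthesis, held 68.8, 45.9 and 87.7 CPM in WT and 108, 90.9 and 90.7 CPM in KO (0.52 ± 0.22, edgeR adjusted p = 0.236). It too was lowest in WT at passage 3. Of the 6 genes of the MYC axis edgeR called 1 along passages, against 6.25% of all genes. This was Mxd4, a MYC antagonist, which rose by 0.32 ± 0.07 per passage (edgeR adjusted p = 0.0340). DESeq2 called 1 of the 6 along passages and limma 0, against 10.3% and 7.4% of all genes. Between genotypes edgeR called 0 of the 6, with 1 at an unadjusted p under 0.05 and 0 called by DESeq2 or limma. With passage as a block 2 were called lower in KO, Mxd4 (-0.50, adjusted p = 0.0390) and Mxi1, another MYC antagonist (-0.67, adjusted p = 0.0413), against 11.1% of all genes.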

How the data were processed

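Total RNA of 6 MEF libraries was sequenced. The submitters' processing notes name Trimmomatic 0.39, RSEM and the build GRCm38. Aligner, annotation release and strand setting: not given in the sources used here. Tables the authors deposited hold expected counts (12.0% to 15.8% not whole), in which RSEM shares ambiguous reads among genes. The deposited TPM values are relative abundances corrected for transcript length, and the deposited FPKM values for length and depth. The deposited effective lengths served as an alternative only.

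Of 55487 genes, 55227 matched GENCODE M21 (GRCm38). Expected counts were rounded, scaled by TMM and tested with edgeR 4.0.16 (R 4.3.3, quasi-likelihood, robust, 2-sided, minimum count 10 by genotype, 16603 genes), with Benjamini-Hochberg adjustment over all genes and a threshold of 0.05. The fits held genotype alone, a slope per passage with genotype, and their interaction. Alternatives used DESeq2 1.42.0, limma 3.58.1 on log2(TPM + 1), RLE, no filter, effective lengths, the genotype tag, a passage block, no genotype term, passage as a factor, passage 2 left out and each library left out. A count of 0 allows up to 3 counts, which is 0.0431 to 0.124 CPM (counting error only). Libraries of the same passage deviated together from their genotype's means, with correlations of 0.488, 0.137 and 0.416, and the titles give the passage that pairs them. No libraries were duplicates. The scripts were tested on simulated data.

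The members and lists were chosen with earlier results of these data known. Named with values in every library were, in each group, the 5 genes with the largest genotype difference and the 5 with the largest slope. So were the 3 with the highest and the 3 with the lowest TPM. Qars and Aars were named after their values were seen. Of each related list, genes called and those with the largest change were eligible.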

Additional observations from a re-analysis of the deposited data

How the results depend on the processing

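The count of synthetase genes called between genotypes, 0 in the main test, was 2 with DESeq2 (Farsb and Mars2), 1 with the replicate block of passage (Mars2) and 0 to 1 when a library was left out. The block changed no other synthetase call. Over all genes the genotype count of 412 became 1661 with DESeq2, 0 with the genotype tag, 846 with no filter, 1835 with the replicate block, 70 without passage 2 and 44 to 860 with a library left out. The median genotype difference of mitochondrial genes was 0.19 on the log2(TPM + 1) scale. The slope count over synthetase genes was 1 with no filter (Lars2). Over all genes the slope count of 1038 became 1709 with DESeq2, 2443 with no filter, 157 with no genotype term and 248 to 1261 with a library left out. The interaction count over all genes, 0, became 82 with DESeq2, 2 on the log2(TPM + 1) scale, 289 with no filter and 0 to 11 with a library left out. The KO ratio of cytosolic to mitochondrial levels was 8.97 from means of log2(TPM + 1). The promoter count of 5 became 3 with the longer motif. The causes were not tested. Of 912 values for single genes under an alternative, 5 newly passed the threshold and 907 stayed on their side of it. The sign differed from the main value in 88 of the 912, 17 of them between genotypes, 27 along passages and 44 in the interaction, and 0 of these 88 passed the threshold. With 3 libraries per genotype and the WT library of passage 4 the shallowest (24853121 counts), small differences may be missed.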
